A study of Mus musculus with 10 samples.

Results

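The genes described here are 9 that are known mainly for what hepatocytes release into the blood: Alb, Ttr, Trf, Rbp4, Cp, Apoa1, Apob, Apoe and Mttp. They were chosen by symbol, and all 9 were among the 18407 genes of the deposited count table. RNA came from NMC cells, a line of normal mouse cholangiocytes (the epithelial cells of bile ducts), grown for 6 days as 3D double spheroids. The matrix was collagen I at 1 mg/mL (5 libraries, called collagen 1 to 5) or a mixture of laminin and collagen I at 3:1 by volume (5 libraries, called laminin 1 to 5), and no other treatment was given. Every library comes from this 1 line, and the mixture also contains collagen I. The question addressed is how RNA levels differ between the 2 matrices.

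Hepatocytes and cholangiocytes arise from a common progenitor, the hepatoblast, and hepatocytes make most of the carrier proteins and lipoproteins of plasma. The carriers bind fatty acids and hormones (albumin), thyroid hormone and retinol-binding protein (transthyretin), iron (transferrin), retinol (retinol-binding protein 4) or carry copper (ceruloplasmin). Apolipoproteins wrap lipid into particles: ApoA-I is the main protein of high-density lipoprotein, ApoB the structural protein of very low-density and low-density lipoprotein, and ApoE a ligand of lipoprotein receptors. Mttp encodes the large subunit of microsomal triglyceride transfer protein, which loads lipid onto ApoB in the endoplasmic reticulum. Unlike the products of the other 8 genes, it is not itself a plasma protein. Several of these genes are also active outside the liver, Apoe in macrophages and Ttr in choroid plexus among them.

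Library totals ran from 4424725 to 8129979 counts. Levels are in CPM, counts scaled by TMM factors to a common library size. A gene with no count could lie at up to 3 counts, or 0.364 to 0.690 CPM depending on the library. Of the 10789 genes that passed the filter on low counts, 15 (0.139%) were higher and 1 (0.00927%) was lower in the laminin-rich matrix in edgeR's quasi-likelihood test, at a Benjamini-Hochberg adjusted p below 0.05. Libraries differed in how counts depended on transcript length, with slopes from -0.378 (collagen 4) to 0.186 (collagen 1) log2 units per doubling of length. The code letter in the library names, whose meaning is not stated, was B for collagen 1 to 3, D for collagen 4 and 5, E for laminin 1 to 3 and F for laminin 4 and 5, and no letter is shared between the matrices. A letter effect and a matrix effect cannot be told apart.

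Most markers of the labelled cell type were detected. Cholangiocyte markers summed to 5519 to 7576 CPM in collagen and 5716 to 7409 CPM in laminin, led by Krt8, Krt19 and Krt18, with Sctr at 0 counts. Of 35 intracellular and membrane markers of hepatocytes in the table, 16 had no count in any library, among them Cyp2e1, Cyp3a11, Arg1, Otc, Fabp1 and Slc10a1. Only 4 of the 35 reached a mean of 1 CPM, namely Glul, Asl, Fah and Cyp27a1, all of which are also made outside the liver. The hepatocyte marker sum was 173 to 261 CPM in collagen and 188 to 238 CPM in laminin. Afp, the plasma protein of fetal hepatocytes, averaged 0.210 and 0.0579 CPM in the 2 matrices from 9 counts in all, and the hepatoblast markers Dlk1 and Gpc3 had no count. Leukocyte markers summed to 51.8 to 90.3 CPM in collagen and 52.7 to 93.7 CPM in laminin, led by Cd14, while the macrophage markers Adgre1, Clec4f and Tyrobp had no count. Endothelial markers summed to 331 to 664 and 536 to 662 CPM, led by Flt1, with Cdh5 and Kdr at 0 counts. Fibroblast and stellate markers summed to 652 to 808 and 661 to 824 CPM, led by Fbln2. No tested marker of any list passed in edgeR, while DESeq2 called 5, named after their values were seen. Of the fibroblast and stellate markers, Dcn averaged 8.09 CPM in collagen against 3.47 in laminin, Pdgfra 4.01 against 9.29 and Pdgfrb 0.620 against 3.43 CPM (adjusted p = 7.4e-04, 0.0403 and 7.4e-04 in DESeq2). Of the cholangiocyte markers, Slc10a2 averaged 3.99 against 9.12 and Muc1 32.2 against 72.1 CPM (adjusted p = 0.0171 and 0.00707 in DESeq2). Their part in the results for the 9 genes was not tested. Intestinal markers summed to 32.6 to 57.1 and 40.6 to 82.9 CPM, led by Cdx2, and kidney tubule markers to 4.68 to 5.71 and 3.68 to 25.9 CPM. In bulk RNA, fewer cells making a transcript and less transcript per cell cannot be told apart.

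The 9 genes spanned a wide range of levels. Per kilobase of the longest annotated transcript, the order in collagen was Rbp4 at 273 ± 68.7 CPM per kb (SD, n = 5), Cp at 69.0 ± 7.93, Trf at 40.5 ± 5.95, Alb at 9.22 ± 2.46 and Ttr at 5.27 ± 3.77 CPM per kb. Apoa1 (2.23 ± 1.08), Mttp (2.14 ± 0.321), Apoe (1.17 ± 0.418) and Apob (0.0632 ± 0.0185 CPM per kb) followed. The ranges of Alb and Ttr overlapped, as did those of Ttr and Apoa1 and of Apoa1 and Mttp, while each of the other neighbours in that order was separate. In laminin the order was Rbp4 (198 ± 63.6 CPM per kb), Cp (70.4 ± 12.5), Trf (24.6 ± 8.40), Alb (17.4 ± 8.21), Ttr (9.91 ± 3.32), Mttp (1.59 ± 0.213), Apoa1 (1.19 ± 0.365), Apoe (1.15 ± 0.441) and Apob (0.311 ± 0.198). There Trf overlapped Alb, Alb overlapped Ttr, and Mttp, Apoa1 and Apoe overlapped in turn. On the CPM scale, Rbp4 and Cp held 37.7% and 43.9% of the summed mean of the 9 genes. Alb, which encodes the most abundant protein of plasma, held 3.74%.

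No gene of the 9 passed the edgeR test. The filter kept 6 (Alb, Ttr, Trf, Rbp4, Cp and Mttp), of which 0 were called in either direction, against the 0.139% higher and 0.00927% lower of all tested genes given above. At an unadjusted p below 0.05 there were 2 higher (Alb and Ttr) and 2 lower (Trf and Mttp), where 6.7% of tested genes were higher and 4.95% lower. Since the genes were chosen with earlier results of these data known, these shares are descriptions. Differences ran in both directions, with 3 log2 fold changes above 0 and 3 below. Their median was -0.20, against 0.01 over all genes tested.

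**Figure D1:**
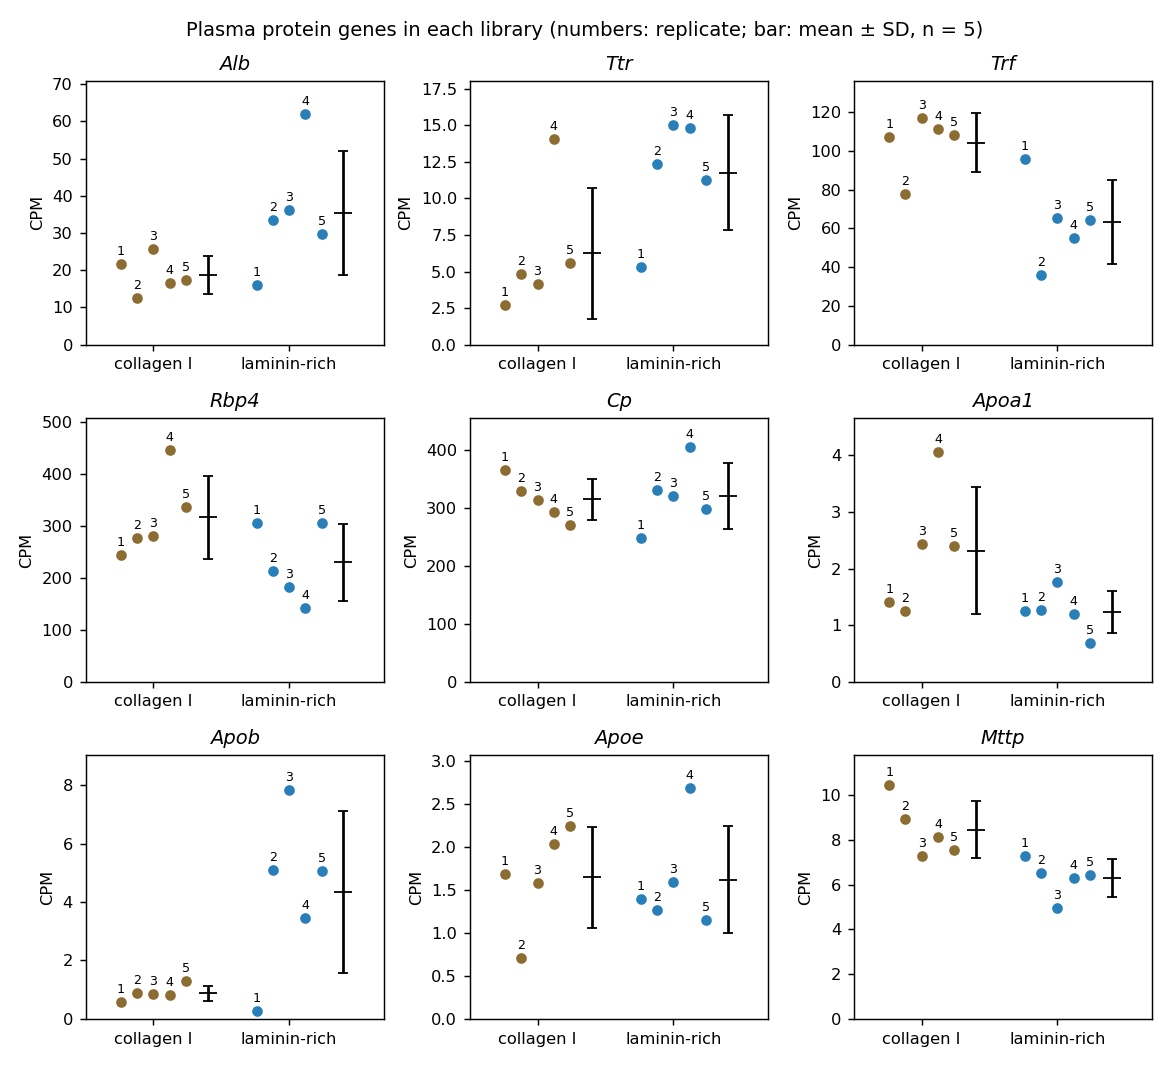
CPM of each of the 9 genes (y axes, linear, from 0) in the 5 collagen I and 5 laminin-rich libraries (x axis). Points are libraries numbered by replicate and the bar at the right of each group is the mean ± SD (n = 5). Laminin 1 lies within the range of the collagen libraries for Alb, Ttr and Trf, and below it for Apob.

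Among the carriers, 3 of 5 had a log2 difference above 0, with albumin and transthyretin well above Cp. Alb (chromosome 5, 90460897 to 90476602, plus strand, GRCm38) had 21.7, 12.7, 25.6, 16.5 and 17.3 CPM in collagen 1 to 5 and 16.1, 33.6, 36.1, 62.0 and 29.7 CPM in laminin 1 to 5. Laminin 2 to 5 all stood above every collagen library, laminin 1 stood below 4 of them, and so the groups overlapped. The means were 18.8 ± 5.01 and 35.5 ± 16.7 CPM (SD, n = 5 per group), a log2 difference of 0.91 (SE 0.30) that did not pass (adjusted p = 0.267 in edgeR). The highest value, in laminin 4, came from 414 counts. Without laminin 4 the log2 difference was 0.59, and without laminin 1 it was 1.10 (adjusted p = 0.408 and 0.0856 in edgeR).

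Ttr (chromosome 18, 20665280 to 20674321, plus strand) gave 2.68, 4.82, 4.13, 14.0 and 5.61 CPM in collagen and 5.31, 12.3, 15.01, 14.8 and 11.3 CPM in laminin. Collagen 4 stood among the laminin libraries and laminin 1 among the other collagen libraries, while laminin 2 to 5 were above collagen 1, 2, 3 and 5. The log2 difference was 0.95 (SE 0.40), with an adjusted p of 0.380 in edgeR. It depended on which collagen libraries entered: it was 1.60 without the letter D libraries and 0.25 without the letter B libraries (adjusted p = 0.144 and 0.692 in edgeR), and 1.45 without collagen 4 alone. Ttr has one of the shorter transcripts here (1186 nt), and collagen 4 was the library with the lowest length slope. With a per-library trend on length and GC content removed, the log2 difference was 1.18 (adjusted p = 0.138 in edgeR). Whether length had a part in the value of collagen 4 was not tested.

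Transferrin and retinol-binding protein 4 had lower means in laminin. Trf (chromosome 9, 103204001 to 103230444, minus strand) stood at 107, 77.8, 117, 111 and 108 CPM in collagen and at 95.6, 36.1, 65.3, 54.8 and 64.4 CPM in laminin. Laminin 2 to 5 were all below the lowest collagen library, and laminin 1 was above it. The mean was 104 ± 15.3 CPM in collagen and 63.3 ± 21.6 CPM in laminin (SD, n = 5 per group), a fold of 0.608 and a log2 difference of -0.72 (SE 0.21) that did not pass (adjusted p = 0.225 in edgeR, 0.0588 in DESeq2). Without the letter B libraries it passed at -0.82 (adjusted p = 0.0495 in edgeR), in a fit that called 7.96% of all tested genes lower, and in a range over 23 alternatives of 0.0495 to 0.453. Exons of Trf share a strand with those of Gm20425, and reads in the overlap could be split between the 2 models.

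Rbp4 (chromosome 19, 38116629 to 38125281, minus strand), the most abundant of the 9 per length, was at 243, 277, 280, 446 and 337 CPM in collagen and at 306, 213, 183, 141 and 305 CPM in laminin. The groups overlapped, with laminin 1 and 5 inside the collagen range and laminin 2 to 4 below it. Within collagen, both letter D libraries were above all 3 letter B libraries, with means of 391 and 267 CPM. The log2 difference was -0.46 (SE 0.22, adjusted p = 0.445 in edgeR), and it was -0.22 without the letter D libraries and -0.80 without the letter B libraries (adjusted p = 0.722 and 0.0530 in edgeR). Rbp4 also has a short transcript (1161 nt), and the 2 letter D libraries had the lowest length slopes, -0.378 and -0.193. When the trend on length and GC content was taken out, the difference was -0.37 (adjusted p = 0.229 in edgeR). Whether length had a part in the higher letter D values was not tested.

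Ceruloplasmin had the smallest difference of the 6 tested genes. Cp (chromosome 3, 19957054 to 20009145, plus strand) held 366, 329, 314, 294 and 271 CPM in collagen and 249, 331, 321, 406 and 299 CPM in laminin, and the ranges overlapped throughout. The log2 difference was 0.03 (SE 0.13), and its sign turned when collagen 5, laminin 2 or laminin 4 was left out. Its spread between libraries was the narrowest of the 9 in collagen, with an SD of 11.5% of the mean, against 71.6% for Ttr. Exons of Cp overlap those of Hps3 on the opposite strand. The kit keeps strand, but whether the counting used it is not recorded. Hps3 itself averaged 16.4 and 21.2 CPM.

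The 3 apolipoprotein genes had few counts, at most 20 per collagen library. Apob (chromosome 12, 7977648 to 8016835, plus strand) was counted 4, 5, 7, 4 and 8 times in collagen 1 to 5 and 2, 28, 49, 23 and 22 times in laminin 1 to 5. This was 0.564 to 1.28 CPM in collagen, and in laminin 0.280 CPM in replicate 1 against 3.44 to 7.82 CPM in replicates 2 to 5. Every one of laminin 2 to 5 thus stood above every collagen library, and laminin 1 stood below all of them. The filter left Apob out. Fitted with no filter, the log2 difference was 2.24 (SE 0.57), with an adjusted p of 0.151 in edgeR. DESeq2 called it at 2.29 (adjusted p = 0.0142), where 1.3% of the genes with an adjusted p were called higher and 0.46% lower. Without laminin 1, edgeR also called Apob, at 2.56 with no filter (adjusted p = 0.00756) and 2.59 with the filter, which then kept it (0.0117). Those fits called 0.467% and 0.499% of all tested genes higher. That was the 1 fit of 10 with a library left out in which it passed in edgeR with no filter. In DESeq2 it passed in 7 of 10 such fits, and not without laminin 2, laminin 3 or laminin 5 (adjusted p = 0.0707, 0.153 and 0.0543). Those 10 fits called 0.527% to 1.64% of genes higher.

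Apoa1 (chromosome 9, 46228580 to 46230466, plus strand) was counted 7 to 20 times per collagen library and 3 to 11 times per laminin library. The values were 1.41, 1.25, 2.43, 4.07 and 2.40 CPM in collagen and 1.26, 1.27, 1.76, 1.20 and 0.690 CPM in laminin, with overlapping ranges. The log2 difference with no filter was -0.87 (SE 0.37), which did not pass (adjusted p = 0.419 in edgeR). Its direction was thus opposite to that of Apob. The mean of the letter D libraries was 3.23 CPM and that of the letter B libraries 1.70 CPM, with collagen 3 (letter B) just above collagen 5 (letter D), and the difference was -0.48 without letter D. Without letter B the filter kept Apoa1, and it passed at -1.36 (adjusted p = 0.0454 in edgeR), where, as given for Trf, 7.96% of all tested genes were called lower. Over the alternatives with no filter its adjusted p ran from 0.0496 (without letter B) to 0.984 (without letter E).

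Apoe (chromosome 7, 19696109 to 19699188, minus strand) was counted 4 to 14 times in collagen and 5 to 18 times in laminin. Its levels were 1.69, 0.713, 1.58, 2.03 and 2.24 CPM in collagen and 1.40, 1.27, 1.60, 2.69 and 1.15 CPM in laminin. The ranges overlapped, and the log2 difference with no filter was -0.03 (SE 0.35, adjusted p = 0.990 in edgeR). At these counts a modest difference was not detectable.

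Mttp (chromosome 3, 138089854 to 138144968, minus strand) gave 10.4, 8.92, 7.29, 8.13 and 7.53 CPM in collagen and 7.27, 6.53, 4.95, 6.29 and 6.44 CPM in laminin. It was the 1 of 6 tested genes whose ranges did not overlap. Over all tested genes, 3.24% had separate ranges, with 1.94% wholly higher and 1.31% wholly lower in laminin. The gap was narrow, from 7.27 CPM in laminin 1 to 7.29 CPM in collagen 3. The log2 difference was -0.42 (SE 0.17), which did not pass (adjusted p = 0.355 in edgeR). Mttp, the gene for the lipid loader, and Apob, the gene for the protein that receives the lipid, thus had log2 differences of opposite sign. Neither passed in edgeR with all libraries. Exons of Mttp overlap those of Trmt10a, at 10.6 and 9.80 CPM, and Gm43691 on the opposite strand, and its value is uncertain for the same reason as that of Cp.

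**Figure D2:**
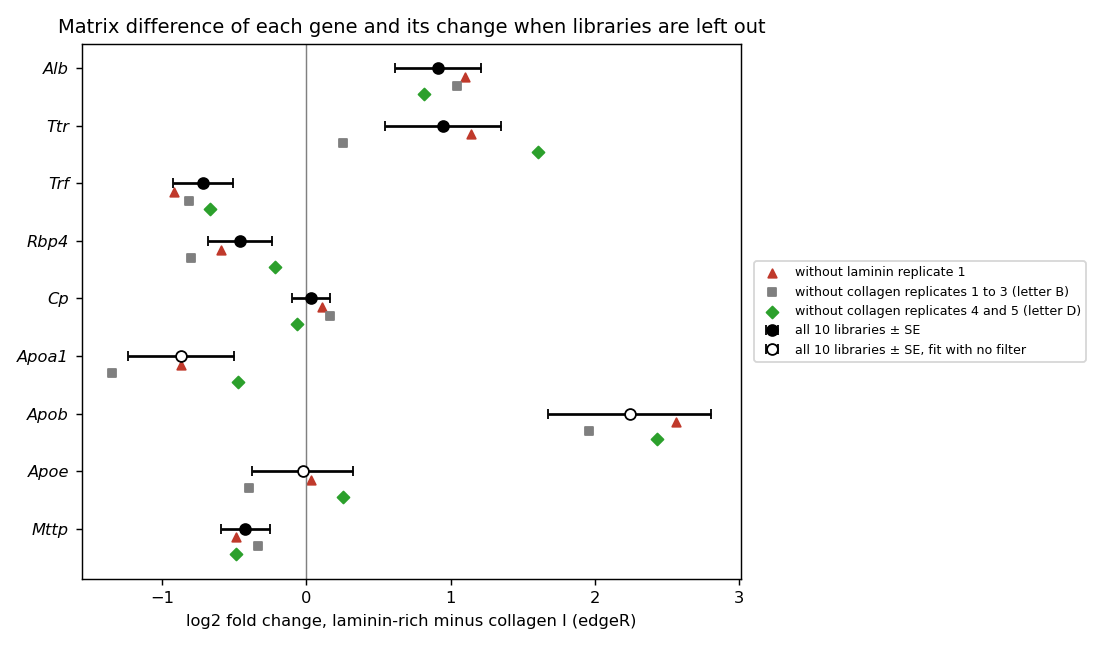
Log2 fold change, laminin-rich minus collagen I (x axis), for each gene (y axis), from edgeR. Filled circles are the fit of all 10 libraries and open circles the fit with no filter, both ± SE; triangles, squares and diamonds show the same fit without laminin 1, collagen 1 to 3 and collagen 4 and 5. For Ttr, Rbp4, Apoa1 and Apoe the fits without collagen 1 to 3 and without collagen 4 and 5 lie far apart, and those of Apoe lie on both sides of 0.

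The sequences upstream of Alb and Apob are shown because these are the 2 genes whose level in each of laminin 2 to 5 was above every collagen library. RefSeq start sites on GRCm38.p6 were used, and 7 of the 9 genes had an entry. The windows run 5′ to 3′ on the plus strand, from 250 bases before the start to the base before it (Alb, chr5:90460620-90460869) or before the first GENCODE exon (Apob, chr12:7977427-7977647). Capitals mark matches to the motifs searched on both strands, which were the CCAAT box, the TATA box (written TATAAA), FOXA (written TGTTTNC), C/EBP (written TTGCNNAA) and the HNF4 site in a first form, CAAAGNCCA, and a second form with one more base between its arms, AAAGNTCCA.
Alb: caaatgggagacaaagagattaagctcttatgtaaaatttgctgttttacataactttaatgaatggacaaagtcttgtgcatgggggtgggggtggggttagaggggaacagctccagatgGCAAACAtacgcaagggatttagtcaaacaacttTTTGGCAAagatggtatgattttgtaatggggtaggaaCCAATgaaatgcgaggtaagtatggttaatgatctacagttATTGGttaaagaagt
Apob: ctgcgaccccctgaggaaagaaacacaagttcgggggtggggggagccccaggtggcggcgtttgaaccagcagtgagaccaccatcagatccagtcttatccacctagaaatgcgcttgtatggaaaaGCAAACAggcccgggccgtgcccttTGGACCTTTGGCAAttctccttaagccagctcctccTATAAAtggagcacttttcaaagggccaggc

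Both windows held GCAAACA, a match to the FOXA letters, starting 128 bases before the start of Alb and 121 before that of Apob. Both also held TTTGGCAA, a match to the C/EBP letters, starting 94 and 90 bases before the start. In Apob this match overlaps a match to the second HNF4 form on the minus strand, which starts 96 bases before the start. Of 32851 windows of the same length in the table, 17.8% held the FOXA letters, 9.56% the C/EBP letters and 1.08% the second HNF4 form. CAAAGNCCA, present in 1.7% of windows, was in no window of the 7 genes. CCAAT was in 33.8% and TATAAA in 12.4% of windows. The letters were chosen with these sequences in view, and a match is a description of the sequence. HNF1 sites, planned at first, were not searched, so stretches in small letters may still hold sites of this or other factors. Elsewhere, Apoa1 held 2 FOXA matches. Of 2 Rbp4 windows, 1 held a FOXA and a CCAAT match and the other a C/EBP and a TATA match. Of 2 Cp windows, 1 held a C/EBP, a CCAAT and 2 TATA matches. Of 3 Apoe windows, 1 held 2 TATA matches, and the Mttp window held none of the motifs.

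Laminin 1 ran against the other laminin libraries in most of these genes. It was the lowest laminin library for Alb, Ttr, Apob and Cp, and the highest for Trf, Rbp4 and Mttp. In laminin 2 to 5, Alb was at 40.3 ± 14.7, Ttr at 13.4 ± 1.85 and Apob at 5.35 ± 1.82 CPM (SD, n = 4), against 16.1, 5.31 and 0.280 CPM in laminin 1. Trf was at 55.2 ± 13.6 CPM in laminin 2 to 5 and at 95.6 CPM in laminin 1. Other plasma protein genes showed the same arrangement: Gc, the vitamin D binding protein, was at 45.9 CPM in laminin 1 and 67.5 to 128 CPM in laminin 2 to 5, and C4b, a complement component, at 14.8 against 29.0 to 42.1 CPM. Hnf4a, which encodes a main regulator of hepatocyte genes, did not, at 113 CPM in laminin 1 and 62.0 to 132 CPM in the others. Laminin 1 had 7468219 counts, the most of the laminin libraries, and a length slope of -0.0115, near the middle of the 10. Its TMM factor was 0.958, the lowest of the 10, where the others ran from 0.982 (laminin 5) to 1.02 (laminin 4). Whether this has a part in its values was not tested. In the fits without laminin 1 the differences of Alb, Ttr, Trf, Rbp4, Mttp and Apob were all larger in size. For these genes it is the laminin library nearest to collagen, so the larger differences follow from its values and are not a separate result.

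**Figure D3:**
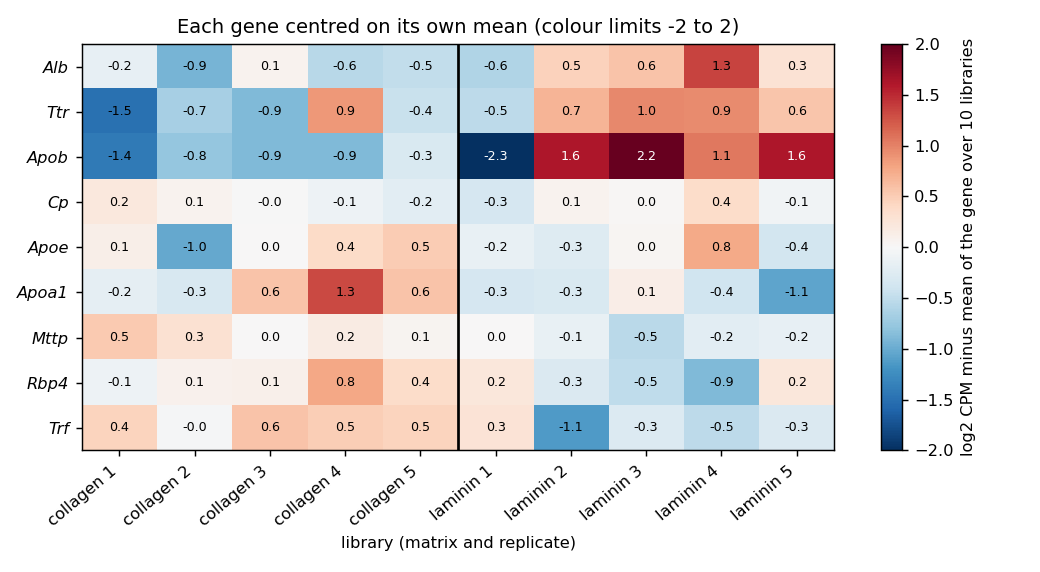
Log2 CPM of each gene (rows) in each library (columns) minus the mean of that gene over the 10 libraries, with the black line between collagen I and laminin-rich libraries. Alb, Ttr and Apob are above 0 in laminin 2 to 5 and below 0 in laminin 1, where Apob is at -2.27.

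For each of the 6 genes with a mean of at least 5 CPM, the genes most alike were sought among 9897 such genes. Likeness was the root mean square (RMS) difference of centred log2 CPM over the 10 libraries, which share depth and length effects. The nearest to Alb were Pcdh10 (RMS 0.27), Agt (0.28) and Lpl (0.28), where the median gene was at 0.69. Agt encodes angiotensinogen, itself a plasma protein made mainly by hepatocytes, and stood at 9.26 ± 2.19 and 16.2 ± 4.94 CPM. Lpl, lipoprotein lipase, stood at 6.86 ± 2.05 and 13.0 ± 4.32 CPM. The nearest to Ttr was Habp2 (0.30), a plasma serine protease, followed by the mucin Muc1 (0.40) and the membrane protease Mmp15 (0.45), with the median gene at 0.89. Trf was most like Camkk1 (0.25), Itgb7 (0.28) and Fam136a (0.28), Rbp4 most like Cda (0.08), Dpysl2 (0.14) and Eif4ebp1 (0.15), Mttp most like Zdhhc20 (0.09), Rap2b (0.11) and Naf1 (0.11), and Cp most like Sox4 (0.06), Dgcr8 (0.08) and 4833420G17Rik (0.08).

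Other plasma proteins were partly present. Of 71 genes in that list, 17 had no count in any library, among them Mbl2, Hrg, Hamp and Pon1, and 21 were tested. None was called over all genes in edgeR, 4 were higher and 2 lower at an unadjusted p below 0.05, and the median log2 difference was 0.16. The median was 0.29 without laminin 1 and 0.25 when the trend on length and GC content was taken out. Selenop, the selenium carrier, was the most abundant, at 988 ± 125 and 1279 ± 210 CPM (SD, n = 5 per group; log2 difference 0.37, SE 0.13), followed by C3 at 378 ± 34.8 and 393 ± 89.8 CPM, Pon3 and Gc. Gc stood at 45.0 ± 12.03 and 76.6 ± 30.7 CPM (log2 difference 0.77, SE 0.25), C4b at 16.1 ± 2.97 and 30.1 ± 9.86 CPM (0.90, SE 0.24), and Habp2 at 0.94 (SE 0.38). On the lower side was Proc, protein C, at -0.57 (SE 0.22). Among these named genes with an unadjusted p below 0.05, adjusted p in edgeR ran from 0.165 for C4b to 0.353 for Habp2, and C4b passed in DESeq2 (0.0258). Of 16 other apolipoproteins, 4 had no count and 4 were tested, with none called. These were Clu at 466 ± 110 and 412 ± 67.5 CPM, Apol7a (log2 difference -0.48, SE 0.16), Apol9a and Apol9b, a near-identical pair whose reads could be split or lost in counting. The same uncertainty applies to C4b, which has a close copy in C4a, and to the ferritin chains, which have many processed copies.

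Genes that act with these proteins were examined by role, and none passed in edgeR. In lipoprotein assembly and secretion, 0 of 27 tested genes were called in edgeR and 2 were higher at an unadjusted p below 0.05. P4hb, the small subunit that pairs with Mttp, averaged 1795 ± 18.6 CPM (collagen) and 1741 ± 252 CPM (laminin), and the chaperones Canx, Calr and Pdia3 gave log2 differences of -0.02, -0.02 and 0.00. The 2 were Abca1, the lipid exporter that loads ApoA-I, at 3.21 ± 2.46 and 14.2 ± 7.81 CPM (2.12, SE 0.48, adjusted p = 0.109 in edgeR and 0.00202 in DESeq2), and Fitm2 (0.67, SE 0.18). Of 17 lipoprotein receptors and lipases, 0 were called in edgeR, with 4 higher and 3 lower at an unadjusted p below 0.05. Vldlr, Sdc1, Lrp1 and Lipa were the most abundant. Lipa, the lysosomal lipase, stood at 241 ± 30.8 and 324 ± 27.0 CPM with separate ranges (adjusted p = 0.152 in edgeR and 0.0180 in DESeq2), and Lrp1, a receptor that takes up ApoE particles, at 260 ± 29.6 and 372 ± 124 CPM. On the lower side were Lmf1 (-0.42, SE 0.18) and Tmem97 (-0.60, SE 0.25).

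For the cargo of the carriers, 32 iron and copper genes were tested, with 0 called in edgeR. At an unadjusted p below 0.05 there were 2 higher, the iron exporter Slc40a1 (87.3 ± 19.2 and 117 ± 31.3 CPM) and Steap4. The transferrin receptor Tfrc stood at 654 ± 219 and 589 ± 99.2 CPM (log2 difference -0.15, SE 0.21), and Fth1 and Ftl1, the ferritin chains, at 0.05 (SE 0.15) and 0.00 (SE 0.18). Of 23 retinoid and thyroid hormone genes, 0 were called in edgeR, with 6 higher and 5 lower at an unadjusted p below 0.05. Thrb, a thyroid hormone receptor, stood at 3.32 ± 0.859 and 7.07 ± 1.81 CPM (1.07, SE 0.24, adjusted p = 0.109 in edgeR and 0.00909 in DESeq2), and Slc16a10, which carries aromatic amino acids and thyroid hormone, at 0.48 (SE 0.17). On the lower side were Rdh10, which oxidises retinol, at 77.4 ± 15.9 and 53.3 ± 8.24 CPM (-0.54, SE 0.16, adjusted p = 0.225 in edgeR) and Fabp5 (-0.64, SE 0.22). Stra6, the cell-surface receptor for retinol-binding protein 4, stood at 9.38 ± 4.58 and 3.72 ± 4.04 CPM (-1.25, SE 0.58, adjusted p = 0.429 in edgeR); it was named after its values were seen. The retinoic acid receptors Rara and Rarg gave -0.03 (SE 0.14) and -0.11 (SE 0.10). Of 6 tested genes in a list on albumin uptake and recycling, 0 were called in edgeR and 1 was higher at an unadjusted p below 0.05. It was Gprc5c, an orphan receptor, at 5.02 ± 1.76 and 13.0 ± 4.01 CPM (adjusted p = 0.0697 in edgeR and 4.5e-04 in DESeq2). A part of Gprc5c in albumin uptake was not tested, and the list was made with earlier results of these data known. Fcgrt, the receptor that recycles albumin, was at 43.8 ± 10.4 and 47.8 ± 7.61 CPM.

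Liver transcription factors lay mostly on the higher side in laminin. Of 31 tested, 0 were called in edgeR, while 8 were higher and 0 lower at an unadjusted p below 0.05, against 6.7% and 4.95% of all tested genes. The log2 difference was above 0 for 27, with a median of 0.22 against 0.01 over all genes, where 51.7% of all tested genes were above 0. It was above 0 for 26 (median 0.21) when libraries were scaled by totals alone, and for 24 (median 0.15) when the trend on length and GC content was taken out. The list was made with earlier results of these data known, so these counts and medians are descriptions. It also holds the coactivators Ppargc1a and Ppargc1b, which are both among the 8. Ppargc1a, a coactivator of Hnf4a, stood at 12.8 ± 4.83 and 33.9 ± 12.1 CPM with separate ranges (1.40, SE 0.29, adjusted p = 0.0807 in edgeR and 9.0e-04 in DESeq2), and Zhx2, known as a repressor of Afp, at 38.4 ± 5.03 and 56.4 ± 3.84 CPM (0.55, SE 0.11, adjusted p = 0.0802 and 0.00138). Hnf4a was at 79.9 ± 15.3 and 109 ± 27.5 CPM (0.45, SE 0.19, adjusted p = 0.390 in edgeR). Foxa2, a pioneer factor of liver and gut, gave 0.02 (SE 0.13), and Cebpa 0.22 (SE 0.16). The most abundant of the list were Srebf2, Srebf1, Onecut2 and Nr2f2, with log2 differences of -0.11, 0.09, 0.35 and 0.09.

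**Figure D4:**
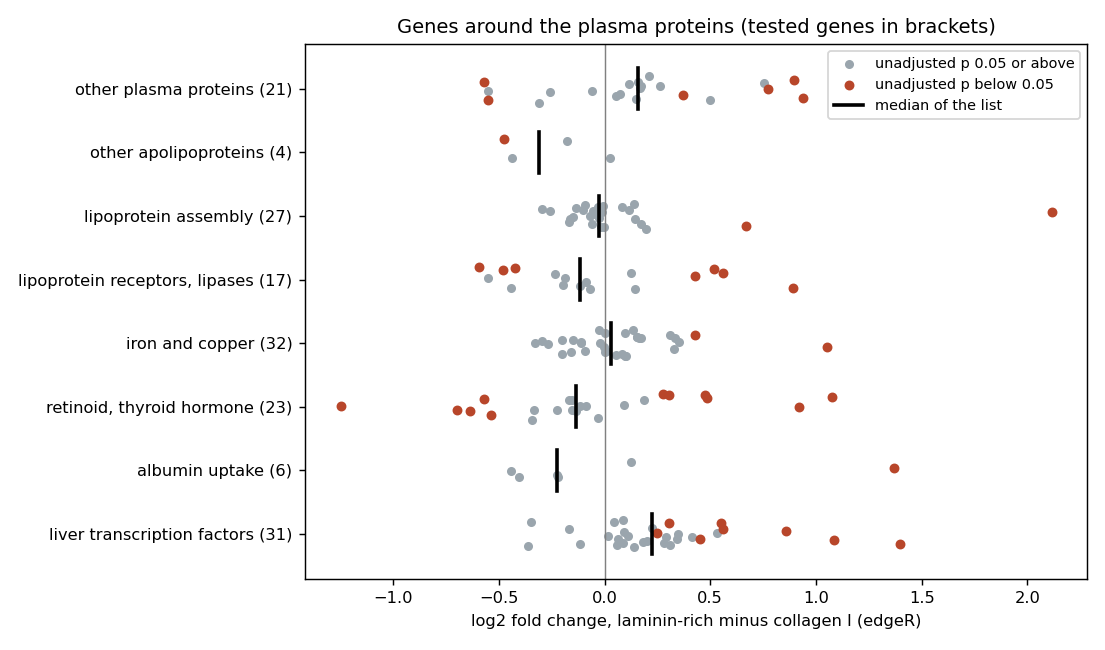
Log2 fold change, laminin-rich minus collagen I (x axis, edgeR), of each tested gene in 8 lists (rows, with the number tested). Red points have an unadjusted p below 0.05, grey points do not, and the black bar is the median of the list. The bar for liver transcription factors stands at 0.22 and that for other plasma proteins at 0.16.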

How the data were processed

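The file holds unnormalized read counts by gene symbol as deposited, with 1 column for each of the 10 samples. Per the labels' protocols, stranded poly(A) libraries were made from 30 ng of RNA. GRCm38 (mm10) and DESeq2 are named per the submitters' processing notes. The aligner, the counter, whether it used strand, and the annotation: not given in the sources used here. No label calls the replicates separate cultures, so the p-values cover only the spread among these libraries, which may be technical.

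Genes were filtered with filterByExpr, scaled with TMM and tested in edgeR 4.0.16 (quasi-likelihood F test, two-sided, R 4.3.3), with Benjamini-Hochberg adjustment over 10789 genes. The SE is the log2 fold change divided by the square root of F. CPM uses totals of 18407 genes times the TMM factor. On simulated counts for 10789 genes, 24.6%, 82.2% and 92.9% of genes changed 1.5-, 2- and 3-fold were recovered. Alternatives used DESeq2 1.42.0, limma 3.58.1, sva 3.50.0, other scalings and filters, and left-out libraries. Lengths and positions are from GENCODE M21 (99.6% of symbols matched), and promoters from RefSeq on GRCm38.p6.

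The 9 genes and the lists were chosen with earlier results of these data known. Named from each list were called genes, up to 4 with the highest mean CPM and up to 2 per direction with the smallest p below 0.05. Markers were named up to 3 per list by mean CPM, apart from those at 0 or near 0 and Foxa2 and Cebpa, named after their values were seen. Some results are not reported here.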

Additional observations from a re-analysis of the deposited data

Results flagged for a closer look

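In 18 groups of 5 libraries (9 genes in each matrix), 3 held a library far from the other 4. Chance alone does this in about 1 in 20 groups. Ttr in laminin 1 was at 2.43 log2 CPM, below the other laminin libraries. Apob in laminin 1, from 2 counts, was at -1.52 log2 CPM, with a count of 0.5 added before the logarithm. Trf in collagen 2 was at 6.28 log2 CPM, below the other collagen libraries, and without it the log2 difference of Trf was -0.83 in place of -0.72.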

How the results depend on the processing

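Alb, Ttr, Trf, Rbp4 and Mttp kept their direction in all 23 alternatives, and of these only Trf passed in any, without the letter B libraries. Cp reversed with 1 surrogate variable (-0.034), without letter D (-0.067) and without letter F (-0.083), and ran from -0.087 to 0.11 with single libraries left out (-0.021 without collagen 5 and -0.00025 without laminin 2). Apoe, fitted with no filter, reversed with the length and GC offset (0.041) and without letter D (0.25) or letter E (0.25). With single libraries left out it ran from -0.29 to 0.11 (-0.28 to 0.12 in DESeq2), and it reversed without collagen 4 (0.044, DESeq2 0.062), collagen 5 (0.11, DESeq2 0.12), laminin 1 (0.034, DESeq2 0.042), laminin 2 (0.048, DESeq2 0.061) and laminin 5 (0.057, DESeq2 0.072). These fits with no filter were chosen after seeing the data. Of the 9 genes, 0 were called higher and 0 lower in edgeR. DESeq2 called 1 higher (Apob), the fits without single libraries 0 to 1 higher and 0 lower, and the fit without letter B 2 lower (Trf and Apoa1), where 7.96% of all tested genes were lower.

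Over all genes, 15 were higher and 1 lower. The counts were 158 and 56 in DESeq2, 26 and 3 with no filter, 77 and 26 with the length and GC offset, and 335 and 103 with 1 surrogate variable. With the filter of 1 CPM in 5 libraries, 2 were lower. They were 5 and 0 without letter D, 1206 and 877 without letter B, 1 and 0 without letter E, and 3 and 2 without letter F, and 0 to 54 and 0 to 10 with single libraries left out. With the replicate block they were 0 and 0, with Alb at 0.83. Same-numbered libraries correlated at -0.323 to 0.464 in their deviations from group means. These values also carry the length effects that differ between libraries, so they cannot decide whether same-numbered libraries were paired. The causes of the differing counts of called genes were not tested. Depth limits Apoa1, Apob and Apoe, at 2 to 49 counts per library.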
